A study of Homo sapiens with 24 samples.

Results

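HepG2 is an established human liver tumour line that keeps many hepatocyte functions, and the data on it are 4 of the 24 libraries of the study, 1 for each combination of siRNA and TGF-beta. They were taken by their column names. The 4 libraries are siSFPQ cells with TGF-beta, siSFPQ cells without it, siCTL cells with TGF-beta and siCTL cells without it, where siSFPQ is an siRNA against SFPQ and siCTL a control siRNA. TGF-beta was given at 2 ng per ml for 24 hours to cells in DMEM with fetal bovine serum, all labelled as wild type, and polyadenylated RNA was sequenced. The other 20 libraries come from the same 4 conditions in Hep3b, Huh1, Huh7, HLE and SK-HEP1. The labels do not say whether siSFPQ was 1 siRNA or a pool, and no second siRNA or rescue is among the libraries, so off-target effects of the siRNA and those of SFPQ loss cannot be told apart.

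SFPQ is a nuclear RNA-binding protein of paraspeckles that acts in transcription and splicing, and cells need it to finish transcripts of long genes. TGF-beta binds a pair of receptor kinases that phosphorylate SMAD2 and SMAD3, which enter the nucleus with SMAD4 and switch on genes of matrix, adhesion and feedback inhibition. In epithelial and liver cells the factor is also known for arresting the cell cycle and for causing apoptosis.

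Each HepG2 condition is a single library, so the knockdown was read as siSFPQ minus siCTL in 2 pairs, 1 without and 1 with TGF-beta. The TGF-beta response was read as treated minus untreated in 2 pairs, 1 in siSFPQ and 1 in siCTL cells. The 2 effects use the same 4 libraries, so their values are given side by side and no relation between them is drawn. Levels are FPKM, fragment counts scaled by transcript length and library size. A change is a log2 difference of FPKM + 1, averaged over the 2 pairs, with its standard error (SE) from limma on all 24 libraries. A gene was called at an adjusted p under 0.05 (Benjamini-Hochberg over 12049 genes). Genes were tested where their mean log2(FPKM + 1) over the 4 HepG2 libraries was at least 1. Some reached it only through 1 side of a comparison, and their p-values carry that limit. For knockdown these include VGF, FGF21 and BAAT through siSFPQ cells, and TNFSF10 and DAO through siCTL cells. For TGF-beta they include MDFI, EDN1, R3HDML, LBH, LEFTY1, COL1A1, ALPPL2, GUCA2A, NEK10 and TTL, through treated cells. All p-values of this fit measure how far libraries of a line stray from an additive fit, not the spread between separate HepG2 cultures, and this may be technical.

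The liver markers were those of the label. HepG2 held 701 to 887 FPKM of albumin (ALB) and 2322 to 5001 of APOA1, the main protein of HDL particles. The fetal liver genes AFP (124 to 196 FPKM), GPC3 (1054 to 1504) and DLK1 (158 to 192) were also present, as was the epithelial adhesion gene EPCAM (167 to 178). The mesenchymal gene VIM was at 8.08 to 9.66 FPKM, against 588 to 6367 in the other lines, and TWIST1 at 0 to 0.0532. The mesenchymal genes CDH2 (22.8 to 55.8 FPKM) and ZEB1 (3.44 to 6.11) were present. Both lay within the other lines, which had 0.311 to 64.6 and 2.65 to 12.8. Transthyretin (TTR, 3.65 to 7.19 FPKM) and the fetal RNA H19 (0.702 to 1.10) were low for cells of the liver lineage. Of 12 endothelial, 13 stellate and fibroblast, and 14 immune markers, 2, 2 and 5 were high enough to test. TEK, ERG, FAP and MS4A1 were at 0 in all 4 libraries. PTPRC reached at most 0.00837 FPKM. The endothelial list summed to 106 and 58.3 FPKM in siSFPQ cells with and without TGF-beta, against 42.9 and 20.1 in siCTL cells, of which the junction gene ESAM made up at most 102 FPKM. The immune list summed to 269 and 603 FPKM in siSFPQ cells with and without TGF-beta and 387 and 780 in siCTL cells, nearly all of it lysozyme (LYZ). The stellate list summed to at most 21.2 FPKM. The part of other cells in the results was not tested, and in bulk RNA fewer cells of a type and less RNA per cell cannot be told apart.

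The file gives no counts. From the values of low genes, depth relative to the median library was 1.18 and 0.395 in siSFPQ cells with and without TGF-beta and 1.47 and 1.11 in siCTL cells, and 0.352 to 1.74 over all 24 libraries. The untreated siSFPQ library was the shallowest of HepG2 and had the fewest rows above 0 (15814). In 152 rows it held the same value above 0 as the other siSFPQ library. It enters the knockdown pair without TGF-beta and the TGF-beta pair in siSFPQ cells. Both of these showed the wider changes: the SD over genes was 0.362 for knockdown with TGF-beta and 0.444 without it, and 0.424 for TGF-beta in siSFPQ cells and 0.310 in siCTL cells. The part of depth in this was not tested. For each list below, the count of calls in the pair without the shallow library follows that over both pairs, except in the lists of other cell types; that pair holds 2 libraries in place of 4.

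SFPQ was at 44.0 and 46.6 FPKM in siSFPQ cells with and without TGF-beta, against 100 and 103 FPKM in siCTL cells. That left 43.8% and 45.2% of the siCTL level, and the other 10 pairs left 9.49% to 44.8%. The change was -1.15 (SE 0.08, adjusted p = 1.68e-05). Knockdown in HepG2 was among the weakest of the 6 lines, but the difference of 1.06 in log2 change from the mean of the others was not called (adjusted p = 0.954). TGF-beta moved SFPQ by -0.06 (SE 0.08).

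Knockdown in HepG2 raised 17 of 24 immediate early genes and lowered 28 of 37 genes of DNA replication, 26 of 34 of mitosis and 10 of 22 hepatocyte transcription factors. In the TGF-beta pair alone, which leaves out the shallow library, these counts were 13, 21, 13 and 5. Members and lists were chosen with earlier results of these data known, and the counts of every list carry that limit. Of 12049 genes, 1689 rose (14%) and 3138 fell (26%), 40.1% in all, and 4815 of the 4827 had the same sign in both pairs. Pairs of opposite sign make a call unlikely, so nothing is read from that agreement in sign. After scaling the libraries to a common median ratio the split was 2179 higher and 2431 lower, so the size of the excess of falls depends on the scaling. The median change over all genes was -0.07. The TGF-beta pair alone gave 1883 calls (15.6%), 567 higher (4.71%) and 1316 lower (10.9%), and the pair without TGF-beta 3145. Changes of at least 2-fold in both pairs were fewer: 49 genes higher (0.407%) and 85 lower (0.705%). The same counts were 33 and 158 in Hep3b, 26 and 31 in Huh1, 87 and 198 in Huh7, 135 and 814 in HLE, and 211 and 923 in SK-HEP1. Only Huh1 had fewer large falls than HepG2. These counts use the genes expressed in each line, 11176 to 12369, and were not tested against each other.

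**Figure D1:**
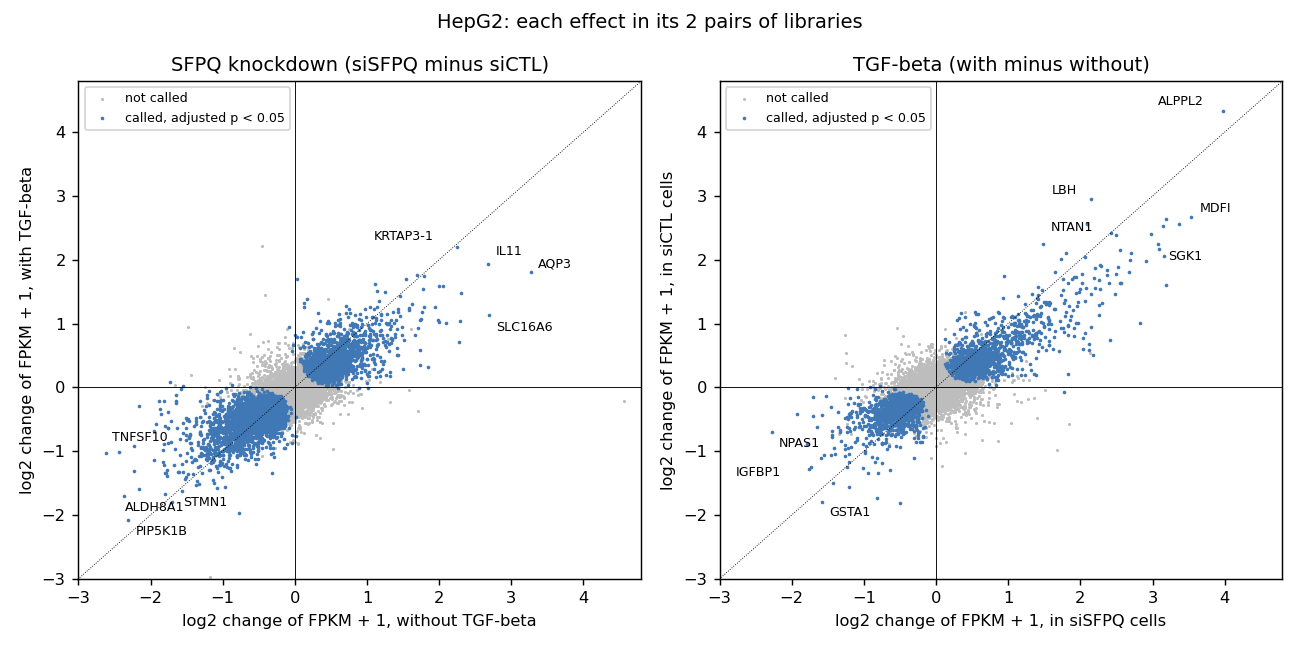
Each point is 1 of the 12049 genes tested in HepG2; the left panel sets the knockdown change (log2 of FPKM + 1) without TGF-beta on the x axis against that with TGF-beta on the y axis, and the right panel sets the TGF-beta change in siSFPQ cells against that in siCTL cells. Blue points were called at an adjusted p under 0.05, the dotted line marks equal change, and points far right or left of it at the top and bottom moved more in the pair that holds the untreated siSFPQ library.

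The largest rise was that of AQP3, a channel for water and glycerol. It was at 47.1 and 69.2 FPKM in siSFPQ cells with and without TGF-beta, against 12.8 and 6.27 FPKM in siCTL cells. Both siSFPQ libraries lay above both siCTL libraries, and the change was 2.54 (SE 0.27, adjusted p = 0.00014). With the spread taken from the 4 HepG2 libraries alone AQP3 was not called (adjusted p = 0.0579). IL11, a cytokine of the IL-6 family that TGF-beta also raises, had 72.9 and 25.4 FPKM in siSFPQ cells with and without TGF-beta, against 18.4 and 3.12 FPKM in siCTL cells (2.31, SE 0.54, adjusted p = 0.0118). KRTAP3-1, a hair keratin-associated gene with close relatives on the same chromosome, had 55.0 and 60.5 FPKM in siSFPQ cells with and without TGF-beta, against 11.2 and 11.9 FPKM in siCTL cells (2.23, SE 0.17). Both of its pairs were close to this mean.

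IGFBP1, a secreted binding protein of insulin-like growth factors made by liver, reached 998 and 3312 FPKM in siSFPQ cells with and without TGF-beta, against 332 and 795 FPKM in siCTL cells (1.82, SE 0.35, adjusted p = 0.00456). It was not called in the TGF-beta pair alone (1.58, adjusted p = 0.0522) or with a pseudocount of 0.1 (adjusted p = 0.0587). F3, the tissue factor that starts coagulation, was at 17.2 and 16.3 FPKM in siSFPQ cells with and without TGF-beta, against 4.42 and 4.04 FPKM in siCTL cells (1.76, SE 0.25). The other rises among the 10 largest were SLC16A6 (1.91), a transporter of ketone bodies, DLX2 (1.89), a homeobox factor, CYP24A1 (1.79), the enzyme that inactivates vitamin D, RASD1 (1.72), a small GTPase, and VGF (1.66), a secreted neuropeptide precursor. SLC16A6 was not called with the 4 HepG2 libraries alone (adjusted p = 0.0993). In 9 of these 10 both HepG2 pairs lay above all 10 pairs of the other lines, against 677 of all genes tested (5.62%); the 10 were picked by their size, and nothing is read from that count. IL11 was the exception, its other pairs ranging from -0.27 to 3.06.

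The largest fall was that of PIP5K1B, a kinase that makes the membrane lipid PIP2. It was at 2.24 and 1.71 FPKM in siSFPQ cells with and without TGF-beta, against 12.7 and 12.4 FPKM in siCTL cells (-2.19, SE 0.10, adjusted p = 2.8e-06). SPTLC3, a subunit of serine palmitoyltransferase, which starts sphingolipid synthesis, had 1.94 and 3.57 FPKM in siSFPQ cells with and without TGF-beta, against 8.62 and 22.5 FPKM in siCTL cells (-2.04, SE 0.21). STMN1, a protein that destabilises microtubules, was at 22.1 and 24.9 FPKM in siSFPQ cells with and without TGF-beta, against 79.4 and 83.0 FPKM in siCTL cells (-1.75, SE 0.07, adjusted p = 1.44e-06). Its 10 pairs in the other lines ran from -4.16 to -0.89.

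Other large falls were ALDH8A1 (-1.88), an aldehyde dehydrogenase of tryptophan breakdown, DGKK (-1.73), a diacylglycerol kinase, TNFSF10 (-1.73), the death ligand TRAIL, VSNL1 (-1.59), a calcium sensor, C19orf77 (-1.58) and PTCHD4 (-1.57). HPR (-1.77) is close in sequence to haptoglobin (HP), so reads may have been split between them. TNFSF10 stood at 0.790 and 0.360 FPKM in siSFPQ cells with and without TGF-beta, against 2.62 and 6.37 FPKM in siCTL cells, and was not called with the 4 HepG2 libraries alone (adjusted p = 0.0554). In 8 of the 10 largest falls both HepG2 pairs lay below the range of the other lines, against 807 of all genes tested (6.7%), with the same limit.

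**Figure D2:**
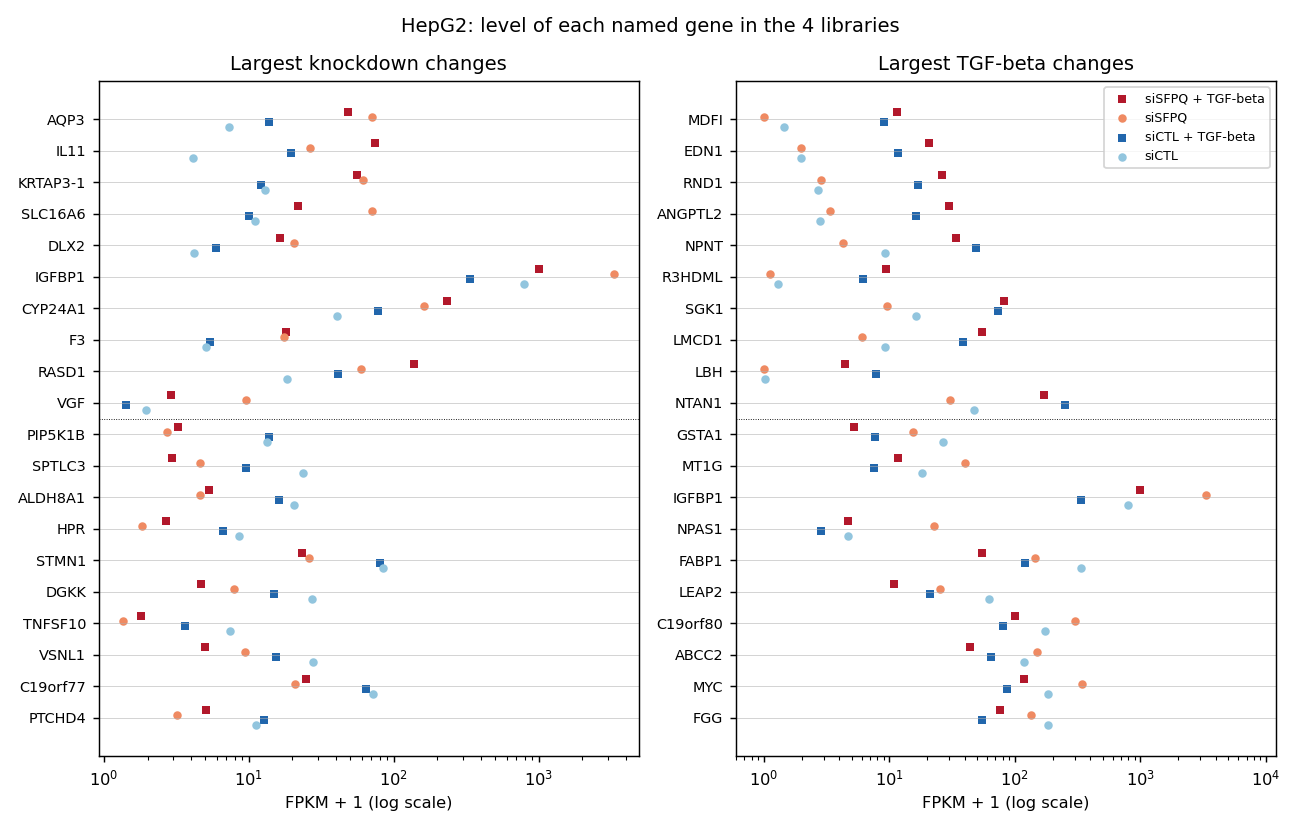
FPKM + 1 on a log axis of the genes with the 10 largest rises and, under the dotted line, the 10 largest falls in HepG2, for knockdown (left) and TGF-beta (right); each point is 1 library, red and orange for siSFPQ with and without TGF-beta, dark and light blue for siCTL with and without it. For knockdown both red and orange points lie on one side of both blue ones in every gene, and for the TGF-beta rises the squares lie right of the circles, while among the TGF-beta falls they overlap in IGFBP1 (998 FPKM treated in siSFPQ cells and 795 untreated in siCTL cells).

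Immediate early genes, which growth factors and stress switch on within minutes, had the highest knockdown median of the lists with at least 10 genes tested, an order that was not tested. Of 24 AP-1 and immediate early genes tested, 17 rose and 2 fell, with a median change of 0.71. Of the 6 lines this median was the highest in HepG2, the others having 0.19 to 0.51. Members of every list were kept on their level in HepG2 alone. In each such comparison, a line that holds little of the members is therefore drawn towards 0. DUSP1, a phosphatase that turns off MAP kinases, had 67.2 and 71.7 FPKM in siSFPQ cells with and without TGF-beta, against 29.2 and 27.3 FPKM in siCTL cells (1.27, SE 0.12). DUSP5, another MAP kinase phosphatase, rose by 1.51 (SE 0.16), the transcription regulator IER2 by 1.41 (SE 0.15) and ZFP36, which destabilises cytokine mRNAs, by 1.05 (SE 0.12). With the TGF-beta pair alone 13 rose and 1 fell.

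Stress genes were called in both directions. Of 26 genes of the unfolded protein and integrated stress responses, 11 rose and 4 fell, with a median of 0.25 against -0.08 to 0.02 in the other lines; in 7 of the 26 both pairs lay above the other lines' range (5.62% of all genes). VLDLR, a lipoprotein receptor induced by ATF4, rose by 0.81 (SE 0.10), FGF21, a liver hormone of fasting, by 0.97 (SE 0.15) and the pseudokinase TRIB3 by 0.66 (SE 0.12). XBP1, the factor of the IRE1 branch, fell by 0.99 (SE 0.08) on the log2 scale, to 124 and 189 FPKM in siSFPQ cells with and without TGF-beta, against 236 and 393 FPKM in siCTL cells. With the TGF-beta pair alone 3 of the 26 rose and 2 fell. Of 28 glycolysis and hypoxia genes 9 rose and 2 fell (median 0.14), and 6 had both pairs above the other lines' range. Among them HK2, which starts glycolysis, rose by 0.72 (SE 0.10), PFKP by 0.77 (SE 0.11) and PFKFB3, which makes the activator of phosphofructokinase, by 0.50 (SE 0.09). With the TGF-beta pair alone 4 rose and none fell.

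Most of the cell cycle genes fell. None of the 37 genes of G1/S and replication rose and 28 fell (median -0.43), and of 34 G2/M and mitosis genes 26 fell and none rose (median -0.41). TK1, the thymidine kinase of S phase, was at 30.2 and 26.0 FPKM in siSFPQ cells with and without TGF-beta, against 64.9 and 65.6 FPKM in siCTL cells (-1.19, SE 0.11). CDT1 and MCM5, which load and form the replicative helicase, fell by 0.83 (SE 0.08) and 0.84 (SE 0.08). TOP2A, which untangles chromosomes, had 39.7 and 37.7 FPKM in siSFPQ cells with and without TGF-beta, against 79.6 and 82.0 FPKM in siCTL cells (-1.04, SE 0.07), and the spindle factor TPX2 and the proliferation marker MKI67 fell by 0.91 (SE 0.08) and 0.68 (SE 0.07). For TK1 and TOP2A the 2 libraries of each siRNA, which differ in TGF-beta, had close values. Members were named by the smallest p, which favours pairs that agree, so nothing is read from that. With the TGF-beta pair alone 21 and 13 fell and none rose. HepG2 was not extreme among the lines: the G1/S medians of the others ran from -1.49 in HLE to -0.06 in Hep3b, and the G2/M medians from -1.77 to 0.03. Of 25 homologous recombination genes 12 fell and none rose (median -0.31), among them FANCI by 0.73 (SE 0.07), BRCA1 by 0.77 (SE 0.08) and FANCD2 by 0.91 (SE 0.10); 7 fell and none rose in the TGF-beta pair alone.

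Among CDK inhibitors and cytostatic genes, 2 of 15 rose and 4 fell, and in the TGF-beta pair alone 1 rose and 2 fell. Over both pairs 14% of all genes rose and 26% fell, the shares beside which the counts of this paragraph stand. CDKN2C, an inhibitor of CDK4 and CDK6, fell by 1.16 (SE 0.15). CDKN1A, the p53 target p21, was at 192 and 158 FPKM in siSFPQ cells with and without TGF-beta and at 181 and 134 FPKM in siCTL cells (0.16, SE 0.09, adjusted p = 0.175). CDKN2B changed by 0.26 (SE 0.11, adjusted p = 0.0921). Of 28 p53 targets 6 rose and 9 fell, and in the TGF-beta pair alone none rose and 4 fell. DDB2, a sensor of ultraviolet damage, fell by 0.98 (SE 0.10), RRM2B, a ribonucleotide reductase subunit, by 0.68 (SE 0.09) and SPATA18 by 0.59 (SE 0.09). Of 24 genes of the BCL2 family and apoptosis 7 rose and 3 fell: the survival protein MCL1 rose by 1.14 (SE 0.09), to 226 and 235 FPKM in siSFPQ cells with and without TGF-beta, against 112 and 96.6 FPKM in siCTL cells, while the apoptosis effector BAX fell by 0.52 (SE 0.10). The TGF-beta pair alone had 3 of the 24 higher and 2 lower.

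Of 22 hepatocyte transcription factors 10 fell, none rose and 12 were not called (median -0.31, against -0.11 to -0.05 in the other lines). The members were kept on their level in HepG2 alone, so lines that hold little of them are drawn towards 0. FOXA1, a pioneer factor of liver chromatin, was at 40.2 and 28.0 FPKM in siSFPQ cells with and without TGF-beta, against 67.2 and 66.0 FPKM in siCTL cells (-0.97, SE 0.12). HNF4G fell by 0.66 (SE 0.11). HNF4A, a central factor of hepatocyte identity, fell by 0.32 (SE 0.11, adjusted p = 0.0412). XBP1 stood in this list as well as in the stress list. With the TGF-beta pair alone 5 fell and none rose, and after scaling to a common median ratio 9 fell and 2 rose.

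Of 34 plasma protein genes 14 fell and 2 rose (median -0.20), and in 6 both pairs lay below the other lines' range (6.7% of all genes). The falls included HP, which binds free haemoglobin, by 1.06 (SE 0.15), PROC, the anticoagulant protein C, by 0.66 (SE 0.13), and TTPA, the vitamin E transfer protein, by 0.86 (SE 0.15). APOC3, an inhibitor of triglyceride clearance, was at 275 and 129 FPKM in siSFPQ cells with and without TGF-beta, against 416 and 450 FPKM in siCTL cells (-1.20, SE 0.24, adjusted p = 0.00392). These calls rested mostly on the pair that holds the shallow library: with the TGF-beta pair alone 1 of the 34 fell and 1 rose, and the median was -0.11 in that pair and -0.48 in the other. Of 18 bile acid and drug metabolism genes 9 fell and 3 rose (median -0.33). CYP27A1, a sterol hydroxylase of bile acid synthesis, fell by 1.10 (SE 0.12), while BAAT, which conjugates bile acids to amino acids, rose by 1.20 (SE 0.19). With the TGF-beta pair alone 2 fell and 1 rose.

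Of 24 cholesterol synthesis genes 12 fell and 1 rose (median -0.23, inside the -0.32 to 0.03 of the other lines), and in the TGF-beta pair alone 7 fell and 1 rose. ACAT2, which makes acetoacetyl-CoA, fell by 0.79 (SE 0.10). HepG2 carries a stabilised beta-catenin, whose part in these values was not tested. Of 18 WNT and beta-catenin targets 6 fell and none rose, while of all genes 26% fell and 14% rose. The median of the targets was -0.32, against -0.02 to 0.22 in the other lines. In the TGF-beta pair alone 3 of the targets fell and 1 rose, with a median of -0.17. CCND1, cyclin D1, fell by 0.89 (SE 0.10), GLUL, glutamine synthetase of the hepatocytes around central veins, by 0.85 (SE 0.10) and the R-spondin receptor LGR5 by 0.95 (SE 0.22). Among 17 oncofetal liver genes 6 fell (26% of all genes), led by PEG10 (-1.29, SE 0.15), and none rose. In the TGF-beta pair alone 2 of them fell. Of 26 very long genes 15 fell and 1 rose. Their median of -0.45 was among the smaller of the lines, which reached -1.52. In 5 of the 26 both pairs lay above the other lines' range (5.62% of all genes). TBC1D5 fell by 1.06 (SE 0.11) and ARHGAP26 by 0.84 (SE 0.10). Of the long genes 9 fell and none rose in the TGF-beta pair alone.

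In the remaining lists calls went both ways with knockdown, beside 14% of all genes higher and 26% lower. NF-kB and inflammatory genes had 7 higher and 3 lower of 18, interferon-stimulated genes 3 and 8 of 26, NRF2 targets 2 and 6 of 24 and paraspeckle genes 3 and 4 of 17. In the TGF-beta pair alone these counts were 2 and 2, 1 and 1, 0 and 5, and 1 and 2. In the paraspeckle list, which holds SFPQ itself, TAF15, an RNA-binding protein, fell by 0.66 (SE 0.08), the scaffold RNA NEAT1 rose by 0.45 (SE 0.13, adjusted p = 0.0221) and MATR3, a partner of nuclear RNA, by 0.35 (SE 0.07). In TGF-beta signalling, TGFBR1, the type I receptor, rose by 0.63 (SE 0.09) and BMPR2, the type II receptor for BMPs, fell by 0.83 (SE 0.14), and 3 of 16 receptors and SMADs rose and 2 fell (1 and 1 in the TGF-beta pair alone). SMAD4, which SMAD2 and SMAD3 need in the nucleus, was at 10.1 and 9.04 FPKM in siSFPQ cells with and without TGF-beta and at 10.0 and 9.64 FPKM in siCTL cells (-0.04, SE 0.09, adjusted p = 0.777). SMAD7, the inhibitor of the receptors, was at 41.2 and 23.5 FPKM in siSFPQ cells with and without TGF-beta, against 53.3 and 33.2 FPKM in siCTL cells (-0.42, SE 0.10, adjusted p = 0.00788), but it was not called in the TGF-beta pair alone (-0.36, adjusted p = 0.118). Of 13 SMAD feedback inhibitors 2 rose and 5 fell, and in the TGF-beta pair alone 2 rose and 2 fell. NEDD4L, a ubiquitin ligase for activated SMADs, fell by 0.86 (SE 0.09) and C18orf1 (LDLRAD4), which blocks SMAD phosphorylation, by 0.92 (SE 0.13), while the corepressor SKI rose by 0.39 (SE 0.07). The BMP and ID list had 1 higher and 2 lower of 8, and the matrix, mesenchymal and epithelial lists 7 and 3 of 22, 7 and 2 of 19, and 7 and 3 of 21. In the TGF-beta pair alone the BMP, matrix, mesenchymal and epithelial lists had 1 and 1, 7 and 1, 5 and 2, and 1 and 1. Among 29 TGF-beta targets 9 rose and 3 fell, and in the TGF-beta pair alone 9 rose and none fell; CYR61, a matricellular protein, rose by 1.66 (SE 0.12).

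Against the other 5 lines, the knockdown change of a gene was called different in HepG2 for 16 genes (0.133%), 3 higher and 13 lower, and 680 passed at an unadjusted p under 0.05. A gene entered this test on its level in HepG2 alone, so where other lines hold next to none of it the difference largely restates the change in HepG2. KRTAP3-1, expressed in none of the other lines, differed by 2.15 (SE 0.18, adjusted p = 0.0253), AQP3, expressed in 3, by 2.11 (SE 0.28, adjusted p = 0.0474) and NPAS1, expressed in 2, by 1.62 (SE 0.21). The 10 largest negative differences ran from -1.84 for ALDH8A1 to -1.11 for DAO, and the others were DGKK, MBOAT4, LDLRAD1, TMPRSS2, HEPACAM, CACNB4, DIO1 and SERPINA11; the last 6 of these and DAO were expressed in no other line. TMPRSS2, a membrane serine protease of epithelia, had 5.93 and 8.03 FPKM in siSFPQ cells with and without TGF-beta, against 17.3 and 24.6 FPKM in siCTL cells, and a mean of at most 0.865 FPKM in any other line. DIO1, which activates thyroid hormone, had 7.94 and 8.37 FPKM in siSFPQ cells with and without TGF-beta, against 21.8 and 23.8 FPKM in siCTL cells. Of the 16 genes 11 were expressed in none of the other lines, by the same level that HepG2 genes had to reach, and 14 in at most 1. Among the 9418 genes expressed in all 6 lines none was called, and 286 passed unadjusted. No call was left without Hep3b, without Huh1, without HLE or without SK-HEP1, and 50 genes, among them all 16, were called without Huh7.

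TGF-beta in HepG2 raised 21 of 29 listed TGF-beta targets, 13 of 22 matrix genes and 9 of 13 feedback inhibitors, and lowered 10 of 24 NRF2 targets and 7 of 18 genes of bile acid and drug metabolism. In the siCTL pair alone, which leaves out the shallow library, these counts were 12, 5, 6, 0 and 2. Members and lists were chosen with earlier results of these data known, and the counts carry that limit. Of 12049 genes 1096 rose (9.1%) and 1292 fell (10.7%), 19.8% in all, and 2385 of the 2388 had the same sign in both pairs. Here too a call makes the same sign likely, so nothing is read from that agreement. With the libraries scaled to a common median ratio 1232 rose and 1094 fell, so which direction had more calls depends on the scaling. The siCTL pair alone gave 410 calls (3.4%), 282 higher (2.34%) and 128 lower (1.06%), and the siSFPQ pair alone 1683. The median over all genes was -0.04. Large changes were mostly rises: 128 genes (1.06%) were at least 2-fold higher in both pairs and 15 (0.124%) at least 2-fold lower. In the other lines these counts were 7 and 2 in Hep3b, 69 and 12 in Huh1, 167 and 22 in Huh7, 65 and 44 in HLE, and 26 and 10 in SK-HEP1, so that only Huh7 had more large rises than HepG2.

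The largest rise under the naming rule was that of MDFI, an inhibitor of MyoD-family transcription factors. It was at 10.6 and 8.14 FPKM with TGF-beta in siSFPQ and siCTL cells, against 0 and 0.438 FPKM without it (3.10, SE 0.17, adjusted p = 2.62e-06). EDN1, the vasoconstrictor peptide endothelin, had 19.6 and 10.6 FPKM with TGF-beta in siSFPQ and siCTL cells, against 0.990 and 0.978 FPKM without it (2.97, SE 0.15). ANGPTL2, a secreted angiopoietin-like protein, had 28.7 and 15.3 FPKM with TGF-beta, against 2.36 and 1.82 FPKM without it (2.84, SE 0.16). In all these genes both treated libraries lay far above both untreated ones. These genes were picked by the size of this rise, so nothing is read from that separation.

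NPNT, a matrix ligand of integrins, had 32.8 and 48.1 FPKM with TGF-beta in siSFPQ and siCTL cells, against 3.29 and 8.29 FPKM without it (2.69, SE 0.12). SGK1, a kinase of salt balance and survival, had 80.7 and 72.5 FPKM with TGF-beta, against 8.58 and 15.3 FPKM without it (2.63, SE 0.19). R3HDML, a putative protease inhibitor, had 8.45 and 5.20 FPKM with TGF-beta, against 0.123 and 0.307 FPKM without it (2.66, SE 0.15). The rest of the 10 were RND1 (2.91), a GTPase that loosens actin, LMCD1 (2.61), a LIM domain cofactor, LBH (2.55), a transcription cofactor, and NTAN1 (2.44), which removes the amide from N-terminal asparagine. In the siCTL pair alone LMCD1 was not called (2.06, adjusted p = 0.18).

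NTAN1 was the most abundant of the 10 after treatment, at 170 and 248 FPKM with TGF-beta in siSFPQ and siCTL cells, against 29.3 and 46.6 FPKM without it. Its pairs were 2.50 and 2.39, the SE 0.08 and the adjusted p 7.2e-08. In the other lines, which all expressed it, the 10 pairs ran from -0.06 to 0.81. Its neighbours on chromosome 16 in RefSeq (GRCh38), used here for gene order only, are PDXDC1 and RRN3. PDXDC1 had 43.7 and 51.8 FPKM with TGF-beta, against 36.3 and 46.5 without it (0.21, SE 0.06, adjusted p = 0.0466). RRN3 had 31.9 and 30.5 FPKM with TGF-beta, against 40.7 and 29.9 without it (-0.16, SE 0.10, adjusted p = 0.278).

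ALPPL2, a germ cell and placental type of alkaline phosphatase, falls outside the naming rule because its relatives ALPP and ALPI are close in sequence, and it was chosen after its values were seen. It was at 15.8 and 21.9 FPKM with TGF-beta in siSFPQ and siCTL cells, against 0.0630 and 0.135 FPKM without it, a change of 4.16 (SE 0.12, adjusted p = 4.7e-08), while the 10 pairs of the other lines ran from -0.45 to 0.17. ALPP had 0.813 and 1.04 FPKM with TGF-beta in siSFPQ and siCTL cells, against 0.108 and 0.116 without it, and ALPI 1.60 and 2.35, against 0.738 and 1.03. Libraries of the other lines reached 227 FPKM of ALPP and 972 of ALPI, against 2.34 of ALPPL2. Reads shared between the 3 genes may have been split by the authors' counting, in HepG2 and in the other lines. The difference of ALPPL2 from the other lines carries this limit.

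Promoters of 3 of the genes TGF-beta raised most, and of IL11, are printed because they hold letters that SMAD or AP-1 proteins are known to bind; they were chosen after the values were seen. Each is 250 bases before to 50 after a start, from RefSeq on GRCh38.p14, which is not the build of the files. Where a gene had several starts, the one with the most matches is printed. Capitals mark GTCTAGAC, the palindromic SMAD element, CAGACA, the core of the CAGA box, or TGANTCA, the AP-1 element, on either strand; CAGACA reads TGTCTG on the other. The R3HDML window (chr20:44336793-44337092, + strand) holds 1 palindrome and 3 CAGACA, that of EDN1 (chr6:12290111-12290410, + strand, 1 of 3 starts) and that of ANGPTL2 (chr9:127122586-127122885, - strand) 1 CAGACA each, and that of IL11 (chr19:55370414-55370713, - strand) 1 AP-1 element.
R3HDML: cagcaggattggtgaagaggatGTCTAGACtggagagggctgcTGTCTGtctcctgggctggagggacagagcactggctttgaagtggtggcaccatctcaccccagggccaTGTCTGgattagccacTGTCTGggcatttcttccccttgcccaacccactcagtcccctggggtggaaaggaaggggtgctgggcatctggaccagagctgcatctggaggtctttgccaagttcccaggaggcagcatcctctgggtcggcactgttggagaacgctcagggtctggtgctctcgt
EDN1: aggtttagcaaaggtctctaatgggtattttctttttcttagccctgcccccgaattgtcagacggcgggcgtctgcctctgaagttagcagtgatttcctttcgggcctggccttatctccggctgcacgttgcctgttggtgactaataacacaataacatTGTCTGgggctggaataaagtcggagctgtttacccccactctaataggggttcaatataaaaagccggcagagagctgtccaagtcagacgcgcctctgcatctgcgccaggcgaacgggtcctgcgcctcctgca
ANGPTL2: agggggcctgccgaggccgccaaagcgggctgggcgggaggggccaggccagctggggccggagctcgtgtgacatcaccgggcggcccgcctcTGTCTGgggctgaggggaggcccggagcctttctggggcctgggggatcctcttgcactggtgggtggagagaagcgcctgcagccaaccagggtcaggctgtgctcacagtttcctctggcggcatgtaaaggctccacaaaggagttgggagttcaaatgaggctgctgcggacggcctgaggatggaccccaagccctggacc
IL11: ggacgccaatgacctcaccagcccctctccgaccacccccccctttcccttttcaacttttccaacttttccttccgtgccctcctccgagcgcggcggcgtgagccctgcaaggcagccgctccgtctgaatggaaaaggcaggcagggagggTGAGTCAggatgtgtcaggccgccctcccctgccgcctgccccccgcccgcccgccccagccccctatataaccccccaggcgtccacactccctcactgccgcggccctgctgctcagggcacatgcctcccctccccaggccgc

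Of the 205 genes called at least 2-fold higher with TGF-beta, 140 had an entry, with 214 promoters in all. The palindrome was in 0.467% of these promoters, CAGACA in 19.6% and TGANTCA in 9.35%. For the palindrome this is 1 promoter, that of R3HDML printed above, so nothing is read from its share. These shares were 0.169%, 13.4% and 5.09% among the promoters of all genes tested in HepG2, and 0.202%, 16.9% and 7.71% among all 35116 promoters of this length. The shares were not tested against each other, and a gene can add more than 1 promoter to them. A match is a run of letters and not a shown binding site.

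The largest fall with TGF-beta was that of GSTA1, a glutathione transferase of the liver that is close in sequence to GSTA2. It was at 4.19 and 6.71 FPKM with TGF-beta in siSFPQ and siCTL cells, against 14.5 and 25.7 FPKM without it (-1.68, SE 0.13, adjusted p = 3.18e-05). FABP1, the fatty acid binding protein of hepatocytes, had 53.3 and 119 FPKM with TGF-beta in siSFPQ and siCTL cells, against 145 and 337 FPKM without it (-1.46, SE 0.15). The knockdown change of FABP1 was -1.18 (SE 0.15). With a pseudocount of 0.1 FABP1 was not called for TGF-beta (adjusted p = 0.106), nor was LEAP2 (0.0732). MYC, the growth-promoting transcription factor that TGF-beta is known to repress, had 117 and 86.2 FPKM with TGF-beta, against 344 and 181 FPKM without it (-1.31, SE 0.13).

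C19orf80 (ANGPTL8), a hormone that inhibits lipoprotein lipase, had 99.8 and 79.4 FPKM with TGF-beta in siSFPQ and siCTL cells, against 303 and 173 FPKM without it (-1.35, SE 0.11). The other large falls were MT1G (-1.52), a metallothionein with many close relatives, IGFBP1 (-1.49), NPAS1 (-1.49), a neuronal transcription factor, LEAP2 (-1.38), a liver peptide that blocks the ghrelin receptor, ABCC2 (-1.34), which exports bilirubin conjugates into bile, and FGG (-1.27), a fibrinogen chain. MT1G, IGFBP1, NPAS1 and ABCC2 were not called in the siCTL pair alone, with adjusted p of 0.117, 0.212, 0.0854 and 0.0618, and FGG not in the siSFPQ pair alone (0.0681). In 3 of the 10 largest rises both pairs lay above the other lines' range (4.61% of all genes) and in 7 of the 10 largest falls both lay below it (3.13%). These genes too were picked by their size, and nothing is read from the counts.

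Most of the TGF-beta targets rose. Of 29 tested 21 rose and none fell, with a median of 1.07, 1.10 in siSFPQ cells and 0.88 in siCTL cells. Over the lines HepG2 was second to Huh7 (1.19), and the rest had 0.41 to 0.83. In the siCTL pair alone 12 were called, all higher. SKIL, a corepressor that SMADs induce as feedback, had 42.7 and 29.7 FPKM with TGF-beta in siSFPQ and siCTL cells, against 7.30 and 8.86 FPKM without it (2.02, SE 0.11). JUNB, an AP-1 subunit, had 480 and 266 FPKM with TGF-beta, against 88.3 and 49.0 FPKM without it (2.42, SE 0.14). GADD45B, a stress sensor, rose by 1.41 (SE 0.09), and LEFTY1, a secreted inhibitor of Nodal, by 1.77 (SE 0.13). PMEPA1, a common TGF-beta target, was under the level tested: it had 3.37 and 2.34 FPKM with TGF-beta, against 0 and 0.0709 FPKM without it.

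Of 13 SMAD feedback inhibitors 9 rose and 2 fell (median 0.57, the highest of the 6 lines), and in the siCTL pair alone 6 rose and 1 fell. Follistatin (FST), which traps activin, had 68.0 and 72.4 FPKM with TGF-beta in siSFPQ and siCTL cells, against 14.6 and 25.7 FPKM without it (1.80, SE 0.15), and FSTL3, its relative, rose by 1.70 (SE 0.15). SMAD7 had 41.2 and 53.3 FPKM with TGF-beta, against 23.5 and 33.2 FPKM without it (0.72, SE 0.10), a smaller rise than in some lines, whose pairs reached 2.78. NEDD4L fell by 0.67 (SE 0.09). Of 16 receptors and SMADs 6 rose and 3 fell, and in the siCTL pair alone 3 rose and none fell. BMPR2 had 11.6 and 18.4 FPKM with TGF-beta, against 3.03 and 7.29 FPKM without it (1.44, SE 0.14), TGFBR1 rose by 0.77 (SE 0.09), and the coreceptor TGFBR3 fell by 0.60 (SE 0.09). SMAD4 changed by 0.10 (SE 0.09, adjusted p = 0.497). Of 8 BMP and ID targets 4 fell and none rose, among them ID3, an inhibitor of differentiation factors, by 0.79 (SE 0.08), and the iron hormone hepcidin (HAMP) by 1.08 (SE 0.14); 2 fell in the siCTL pair alone.

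The matrix, mesenchymal and epithelial lists held rises and no falls. Of 22 matrix genes 13 rose and none fell (median 0.44), and of 19 mesenchymal genes 11 rose and none fell (median 0.52). In the siCTL pair alone 5 and 4 rose and none fell. PLOD2, a collagen lysyl hydroxylase, had 197 and 127 FPKM with TGF-beta in siSFPQ and siCTL cells, against 81.7 and 75.1 FPKM without it (1.00, SE 0.07). COL1A1, a chain of type I collagen, rose by 1.97 (SE 0.17) but was low, at 4.85 and 2.12 FPKM with TGF-beta, against 0.0504 and 0.135 FPKM without it. TPM1, a tropomyosin of actin fibres, rose by 0.96 (SE 0.10), PDLIM7 by 0.98 (SE 0.10) and TAGLN by 1.40 (SE 0.15). Of 21 epithelial junction and keratin genes 6 rose, 15 were not called and none fell, and in the siCTL pair alone 3 rose. The median of 0.17 was above the -0.06 to 0.01 of the other lines. Libraries of those lines went down to 0.0666 FPKM of CDH1 and 0 of EPCAM, and such low levels draw a median towards 0. In 4 genes both HepG2 pairs lay above the range of the other lines (4.61% of all genes). CDH1, the E-cadherin of adherens junctions, had 75.8 and 66.8 FPKM with TGF-beta in siSFPQ and siCTL cells, against 30.4 and 38.9 FPKM without it (1.03, SE 0.13, adjusted p = 0.000462), while the pairs of the other lines ran from -0.23 to 0.18. CGN, cingulin of tight junctions, rose by 1.19 (SE 0.13) and CLDN6, a claudin of embryonic epithelia, by 0.85 (SE 0.12). The difference of CDH1 from the other lines was 1.05 (SE 0.14, adjusted p = 0.0603).

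Hepatocyte genes went both ways. Of 34 plasma protein genes 6 rose and 7 fell (1 and 7 in the siCTL pair alone), the median being 0.05 in siSFPQ cells and -0.28 in siCTL cells. VTN, vitronectin of plasma, rose by 1.42 (SE 0.20) and ORM1, an acute phase protein, by 0.87 (SE 0.13), while SERPINC1, antithrombin, fell by 0.65 (SE 0.09). Of 22 hepatocyte transcription factors 1 rose and 5 fell (median -0.21, the lowest of the 6 lines): XBP1 fell by 0.67 (SE 0.08), NR0B2, the repressor SHP of bile acid synthesis, by 1.00 (SE 0.17) and CEBPA by 0.43 (SE 0.09). In the siCTL pair alone 1 of the 22 fell and none rose. Of 18 bile acid and drug metabolism genes 3 rose and 7 fell (median -0.32), and in the siCTL pair alone 1 rose and 2 fell. Of 24 NRF2 targets, which defend against oxidants, 1 rose and 10 fell (median -0.35), with TXNRD1, a thioredoxin reductase, falling by 0.87 (SE 0.13) and OSGIN1 by 1.02 (SE 0.15). None of the 24 was called in the siCTL pair alone, where 1.06% of all genes were called lower. The NRF2 median was -0.30 in that pair and -0.49 in the siSFPQ pair. Among WNT and beta-catenin targets 7 of 18 rose and 2 fell, but in the siCTL pair alone none rose and 2 fell, and in the siSFPQ pair alone, which holds the shallow library, 7 rose and 2 fell. LAMA3 rose by 1.16 (SE 0.18), while SLC1A2, a glutamate transporter, fell by 1.01 (SE 0.10) and GLUL by 0.69 (SE 0.10).

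Of 37 G1/S genes 11 fell and 1 rose (median -0.16), CDC25A, a phosphatase that activates CDK2, falling by 0.70 (SE 0.09), and in the siCTL pair alone none was called. The G1/S median was -0.13 in the siCTL pair and -0.26 in the siSFPQ pair. Of 34 G2/M genes 2 rose and none fell, and none was called in the siCTL pair alone. CDKN2B, the CDK4 inhibitor p15 and a classic TGF-beta target, had 3.67 and 2.98 FPKM with TGF-beta in siSFPQ and siCTL cells, against 1.26 and 0.859 FPKM without it (1.07, SE 0.11). CDKN1A changed by 0.35 (SE 0.09, adjusted p = 0.0183) and was called in neither pair alone. BMF, a BH3-only protein that triggers apoptosis, had 53.7 and 37.5 FPKM with TGF-beta, against 6.31 and 8.81 FPKM without it (2.44, SE 0.21), and of the 24 BCL2 family and apoptosis genes 4 rose and 3 fell (1 and 0 in the siCTL pair alone). In the remaining lists the share called ran on both sides of the 19.8% of all genes. Of 18 NF-kB genes 3 rose and 6 fell, of 15 cytostatic genes 4 rose and 1 fell, and of 24 immediate early genes 4 rose and 3 fell. In the siCTL pair alone these counts were 1 and 3, 2 and 0, and 2 and 1. The other lists had 3 and 3 of 28 p53 targets, none and 2 of 24 cholesterol synthesis genes, none and 3 of 25 recombination genes, 2 and 4 of 26 stress genes, 1 and 1 of 26 interferon genes, 5 and 1 of 28 glycolysis genes, 1 and 2 of 17 oncofetal genes, 1 and 2 of 26 very long genes, and none and 1 of 17 paraspeckle genes higher and lower. The siCTL pair alone left 2 oncofetal genes and 1 stress gene lower and 1 interferon gene higher among these.

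**Figure D3:**
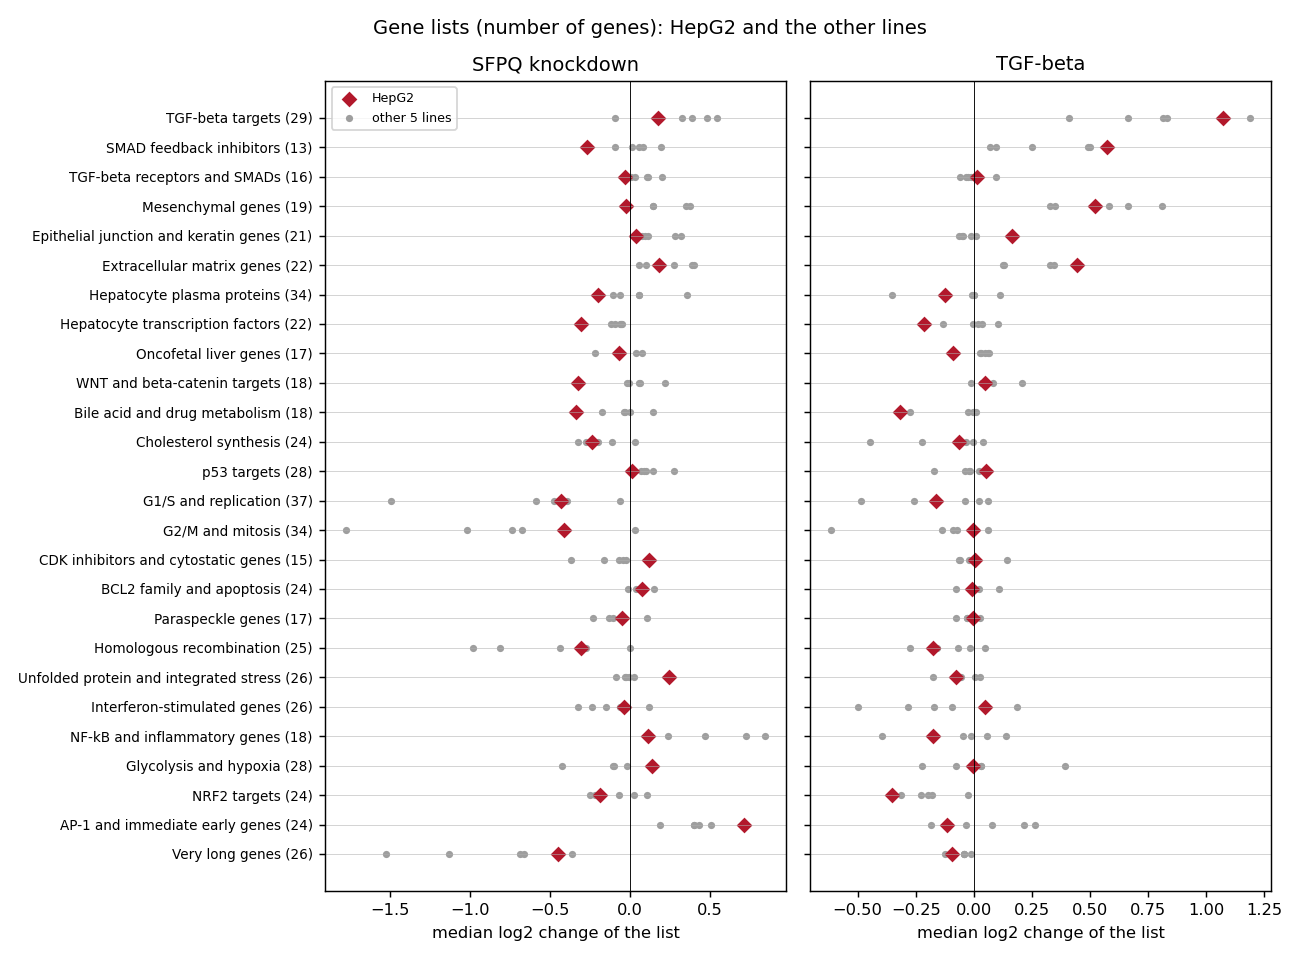
Median log2 change of each gene list with at least 10 genes tested in HepG2, for knockdown (left) and TGF-beta (right); the red diamond is HepG2, the grey points are the other 5 lines over the same genes, and the number of genes is in brackets. With knockdown HepG2 is highest of the lines for AP-1 genes (0.71), stress genes (0.25), glycolysis genes (0.14) and CDK inhibitors (0.12). It is lowest for several lists, among them bile acid genes (-0.33), WNT targets (-0.32) and hepatocyte transcription factors (-0.31). Genes were kept on their level in HepG2 alone, so lines that hold little of a list are drawn towards 0.

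The TGF-beta change differed from that of the other lines for 20 genes (0.166%), 16 higher and 4 lower, and 832 passed at an unadjusted p under 0.05. Here too genes entered on their level in HepG2 alone. ALPPL2, with the limit on shared reads given above, led them with 4.24 (SE 0.17, adjusted p = 0.000514). NTAN1 followed with 2.19 (SE 0.23, adjusted p = 0.0319). SFRP5, a secreted WNT inhibitor, had 9.48 and 10.4 FPKM with TGF-beta in siSFPQ and siCTL cells, against 0.859 and 2.33 FPKM without it, and differed by 2.07 (SE 0.13, adjusted p = 0.00332); no other line expressed it, so this difference largely restates the change in HepG2. CPA6, a carboxypeptidase, differed by 1.72 (SE 0.10, adjusted p = 0.00332), and GUCA2A, PTGDR2, TUBB1, NEK10, COMP, TTL and PRF1 by 1.63 to 1.14. Of these, GUCA2A, TUBB1, COMP, TTL and PRF1 were expressed in no other line, nor were C19orf80 and SLC1A2 among the negative differences. COMP, a cartilage matrix protein, had 10.3 and 8.58 FPKM with TGF-beta, against 2.82 and 3.62 FPKM without it, with a mean of at most 0.145 FPKM in any other line.

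The 4 negative differences ran from -1.29 for C19orf80 to -0.94 for HOXD1, a homeobox factor, with AGXT, a liver enzyme that detoxifies glyoxylate, and SLC1A2 between them. Of the 20 genes 11 were expressed in none of the other lines and 18 in at most 1. Among the 9418 genes expressed in all 6 lines none was called and 446 passed unadjusted; NTAN1 then had an adjusted p of 0.189. Without Hep3b, without HLE or without SK-HEP1 3 genes were called, without Huh1 20, of which 11 were among the first 20, and without Huh7 152, which held all 20. ALPPL2 was called in each of 13 alternatives, SFRP5 and CPA6 in 12 of 13 each, and NTAN1 in 8 of 14.

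**Figure D4:**
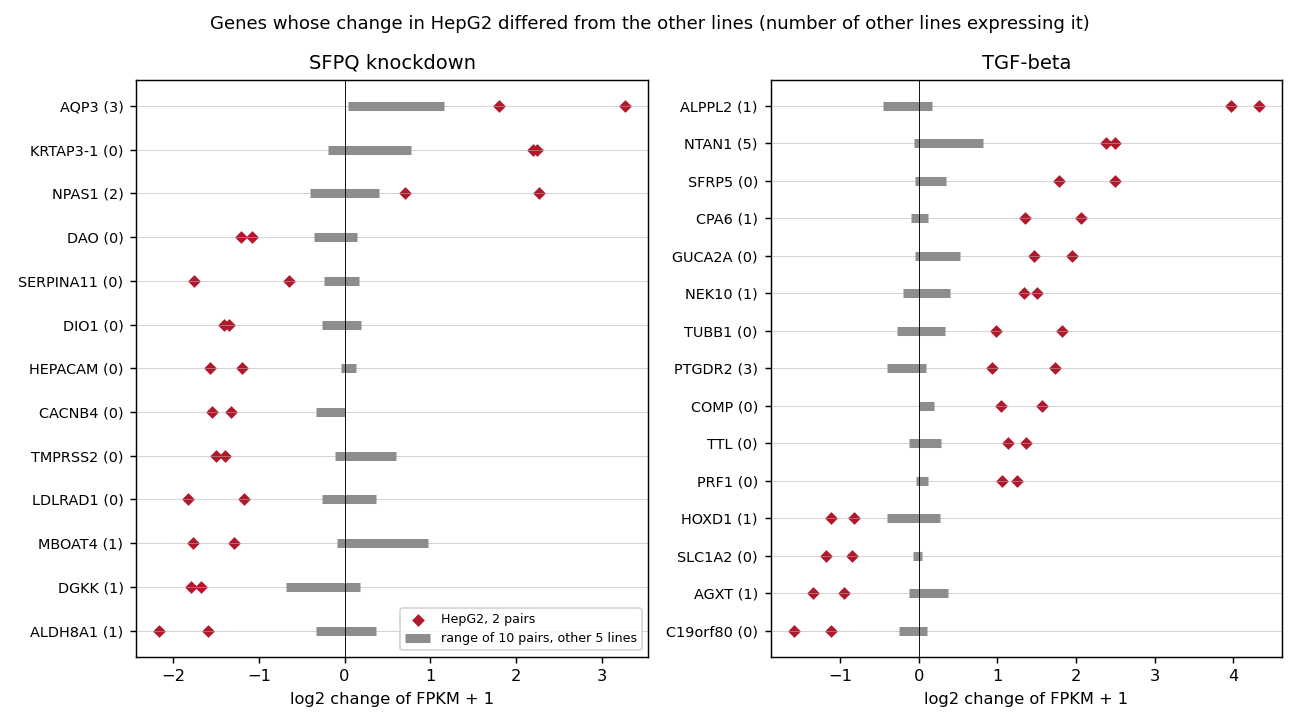
Log2 change of FPKM + 1 in HepG2 (red diamonds, 2 pairs) and the range of the 10 pairs of the other 5 lines (grey bars) for the named genes whose change was called different from the other lines, for knockdown (left) and TGF-beta (right), with the number of other lines that express the gene in brackets. Both diamonds lie outside the bar for every gene shown, and most genes have 0 or 1 in brackets.

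The interaction is the TGF-beta change in siSFPQ cells minus that in siCTL cells, a single value per gene from the 4 libraries with no test. AQP3 had -1.47, against -0.42 to 0.63 in the other lines: TGF-beta went with 47.1 FPKM in siSFPQ cells, against 69.2 FPKM without it, and with 12.8 FPKM in siCTL cells, against 6.27 FPKM without it. SLC16A6 had -1.55 (other lines -0.71 to 0.05), NPAS1 -1.57 (-0.45 to 0.27) and VGF -1.26 (-0.38 to 0.45). All 4 were highest in the untreated siSFPQ library. In the other direction stood TNFSF10 with 1.42 (-0.75 to 0.51), SERPINA11 with 1.12 (-0.06 to 0.27) and SGK1 with 0.92 (-0.62 to 0.24). Of the 10 largest knockdown rises 6 had an interaction below the other lines' range and none above it, and of the 10 largest knockdown falls 6 lay above and none below. These genes were picked by their knockdown size in the same 4 libraries, so nothing is read from those counts. Over all genes HepG2 was above the range for 17.2% and below it for 18.5%. The untreated siSFPQ library, at a relative depth of 0.395, enters the interaction, the wider knockdown pair and the wider TGF-beta pair alike, and its part in these values was not tested. SMAD7 had 0.12 (0.01 to 0.53) and CDKN2B -0.05 (-0.16 to 0.36). In HepG2 and in each of the other 5 lines the SD of the TGF-beta change over genes was wider in siSFPQ than in siCTL cells, 0.424 and 0.310 in HepG2.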

How the data were processed

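RNA of 24 libraries was sequenced, 1 library for each condition of each line. The submitters' processing notes name TopHat2 2.1.1, Cufflinks 2.2.1 and hg19; annotation, settings and strandedness are not stated there. The deposited values are FPKM made by the authors, although the table is labelled as raw counts, so no count test was used. The table has 23284 rows. Leaving out 1627 of short RNAs kept 21657, values under 1e-06 were set to 0, and 2 columns that belong to no sample were not used. The 12049 genes with a mean log2(FPKM + 1) of at least 1 in HepG2 were tested with limma 3.58.1 (R 4.3.3, trend and robust). The fit was also run on simulated data with independent noise and no uneven depth, which cannot speak to the shallow library. The model held line, siRNA and TGF-beta by line and 1 common interaction term, leaving 5 residual degrees of freedom. For differences from other lines, the 6 per-line changes were fitted, with 4. Named genes are the 10 largest called rises and falls, the 2 to 4 list members with the smallest p, and SFPQ, SMAD7, SMAD4, CDKN1A and CDKN2B. PMEPA1, HNF4A, NEAT1 and ALPPL2 were named after their values were seen. Members and lists were chosen with earlier results of these data known. Alternatives changed the pseudocount, filter, scaling, short rows, spread, and left out pairs and lines. Depth is known only relative to other libraries. Some list members are not reported here.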

Additional observations from a re-analysis of the deposited data

Results flagged for a closer look

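The check covered 58 groups of 6 lines: gene list medians by effect, SFPQ levels and the spread of changes. In 7 of them, all list medians, 1 line stood far from the rest. Chance gives about 1 in 20 for a single group. The lists share genes and libraries, so the 7 cannot be set against that rate. HepG2 was that line in 4: its median TGF-beta change was 0.1658 for epithelial junction and keratin genes and -0.08986 for oncofetal liver genes, and its median knockdown change was -0.3073 for hepatocyte transcription factors and 0.2469 for unfolded protein and integrated stress genes. List members were kept on their level in HepG2 alone. Lines that hold little of a list are drawn towards 0, so that HepG2 stands apart can be built in. HLE stood apart for knockdown of G1/S and replication genes (-1.494), and Huh1 for the TGF-beta change of G2/M and mitosis genes (-0.6144) and of CDK inhibitors and cytostatic genes (0.1427).

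The knockdown change in HepG2 differed from the mean of the other lines by limma's test for KRTAP3-1 (2.153), AQP3 (2.108), NPAS1 (1.62), ALDH8A1 (-1.842), DGKK (-1.697), MBOAT4 (-1.63), LDLRAD1 (-1.552), TMPRSS2 (-1.492), HEPACAM (-1.412), CACNB4 (-1.352), DIO1 (-1.344), SERPINA11 (-1.191) and DAO (-1.106). The TGF-beta change differed for ALPPL2 (4.237), NTAN1 (2.193), SFRP5 (2.068), CPA6 (1.716), GUCA2A (1.627), PTGDR2 (1.445), TUBB1 (1.413), NEK10 (1.355), COMP (1.227), TTL (1.211), PRF1 (1.14), C19orf80 (-1.29), AGXT (-1.192), SLC1A2 (-1.003) and HOXD1 (-0.9407). NTAN1 was the one of these TGF-beta genes that all the other 5 lines expressed. Genes entered both tests on their level in HepG2 alone. KRTAP3-1, LDLRAD1, TMPRSS2, HEPACAM, CACNB4, DIO1, SERPINA11 and DAO, and for TGF-beta SFRP5, GUCA2A, TUBB1, COMP, TTL, PRF1, C19orf80 and SLC1A2, were expressed in no other line, so their differences largely restate the change in HepG2. Among the 9418 genes expressed in all 6 lines neither difference was called for any gene by limma, and 286 and 446 passed at an unadjusted p under 0.05.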

How the results depend on the processing

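The knockdown count of 4827 stayed within 1.5 times under every alternative, with 4382 to 5479 when 1 line was left out, except with 1 pair left out: 1883 in the TGF-beta pair alone and 3145 in the other. The TGF-beta count of 2388 became 410 in the siCTL pair alone, 1683 in the siSFPQ pair alone, 2054 to 3033 without 1 line and 1479 with the 4 HepG2 libraries alone. The 16 knockdown differences from the other lines became 0 with a pseudocount of 0.1, 66 with no filter, 7 with a minimum mean of 2, 2 after scaling, 53 with short RNA rows kept, 2 to 78 without 1 pair and 0 to 50 without 1 line, 3184 against the spread within lines, and 0 among genes expressed in all 6 lines. The 20 TGF-beta differences became 1, 47, 7 and 55 for the pseudocount, no filter, the higher minimum and the short rows, 99 in the siSFPQ pair and 10 in the siCTL pair, 3 to 152 without 1 line, 773 against the spread within lines, and 0 among genes expressed in all 6 lines. That last setting was chosen after seeing the data. Beyond fewer samples or genes, the cause was not tested.

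Of 347 values of 25 named knockdown genes 338 kept direction and side of the threshold, and of 360 of 26 TGF-beta genes 341. The knockdown calls lost were those of AQP3, SLC16A6 and TNFSF10 with the 4 HepG2 libraries alone (adjusted p = 0.0579, 0.0993 and 0.0554), IGFBP1 with a pseudocount of 0.1 (0.0587) and in the TGF-beta pair (0.0522), and SMAD7 in that pair (0.118); CDKN2B was called after scaling (0.0488). The 2 reversals were those of SMAD4 with knockdown, 0.024 after scaling and 0.0083 in the pair with TGF-beta, against -0.08244 in the other pair. Of the named differences from other lines, 74 of 167 and 123 of 193 values stayed called. No paired analysis was possible because the replicate numbers name the lines and HepG2 is 1 of them; line was already a term of the main model, which compares libraries within HepG2. Relative depth, 0.395 in the untreated siSFPQ library, limits low genes most.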
